A study of Mus musculus with 6 samples.

Results

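The mitochondrial ribosomal protein genes are the rows of the deposited table whose symbol begins with Mrpl or Mrps followed by a digit. There are 77 of them among 24421 rows, and all 77 had enough counts to be tested. RNA was sequenced from Lin-CD117+ bone marrow cells, sorted for lack of lineage antigens and for the KIT receptor, of female CByB6F1 mice aged 2 to 5 months. The 6 libraries were 3 pools of untreated mice (pools 1 to 3) and 3 pools of mice treated with ruxolitinib (RUX, pools 4 to 6), a drug that blocks the kinases JAK1 and JAK2. Each pool joined the cells of 2 to 3 mice, and the p-values therefore reflect how pools of different mice vary. The series title calls the mice normal. Neither the dose nor the length of treatment is stated in the sources used here. The design asked which genes differ between these cells with and without the drug.

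Mitochondria keep a small genome of their own, and the mitochondrial ribosome translates its messenger RNAs into core subunits of the respiratory chain. Its ribosomal RNAs come from that genome, whereas every protein of its large and small subunits is encoded in the nucleus, made in the cytosol and imported. Part of these proteins have bacterial counterparts and the rest were acquired by mitochondria. Blood progenitor cells are known to rely more on mitochondrial respiration as they proliferate and differentiate. By their place in the assembled ribosome 50 members belong to the large subunit and 26 to the small subunit. Mrps30 and Mrps18a, named for the small subunit, are counted with the large one, where their proteins sit. Mrps36 is counted with neither, since its protein is part of the alpha-ketoglutarate dehydrogenase complex. Of the 76 placed members, 46 have bacterial counterparts and 30 are specific to mitochondria.

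The members lie on 17 chromosomes, with at most 10 on 1 of them (chromosome 11). The 200 bases around the start of Mrpl33, Mrpl37 and Mrpl9 and 100 bases of Mrps11 are shown because the results below turn on these genes. Mrpl33 had the most variable level across pools and the highest level per length. Mrpl37 was the member whose treated and untreated pools did not overlap, and Mrpl9 was the steadiest. Mrps11 shares its start region with Mrpl46. The sequences are RefSeq's (GRCm38.p6), read 5′ to 3′ on the strand of the gene, and end 30 bases into the transcript. Capitals mark matches on either strand to CCGGAAG (ETS family), GCGCATG (NRF1), ATGGCGG (YY1), GGGCGG (SP1 family) and CACGTG (MYC and MAX). Mrpl33 is at chr5:31613781-31613980 (plus strand), Mrpl37 at chr4:107066837-107067036 (minus strand), Mrpl9 at chr3:94443166-94443365 (plus strand) and Mrps11 at chr7:78783061-78783160 (plus strand).
Mrpl33: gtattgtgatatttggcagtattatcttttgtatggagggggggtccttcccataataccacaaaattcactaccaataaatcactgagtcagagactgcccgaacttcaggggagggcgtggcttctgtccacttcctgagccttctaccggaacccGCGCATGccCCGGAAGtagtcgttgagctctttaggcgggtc
Mrpl37: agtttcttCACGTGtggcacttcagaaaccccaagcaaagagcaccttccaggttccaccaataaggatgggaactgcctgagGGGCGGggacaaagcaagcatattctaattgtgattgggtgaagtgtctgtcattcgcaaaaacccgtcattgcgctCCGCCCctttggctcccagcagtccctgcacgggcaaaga
Mrpl9: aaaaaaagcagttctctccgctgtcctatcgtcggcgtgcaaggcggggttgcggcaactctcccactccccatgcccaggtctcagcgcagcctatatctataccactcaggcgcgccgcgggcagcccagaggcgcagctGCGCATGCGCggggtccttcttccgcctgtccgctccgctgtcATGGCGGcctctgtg
Mrps11: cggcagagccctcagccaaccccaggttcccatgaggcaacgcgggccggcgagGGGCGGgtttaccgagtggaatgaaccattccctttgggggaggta

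The Mrpl33 start held 1 match each to the ETS and NRF1 letters, separated by 2 bases. The Mrpl9 start held the NRF1 letters on both strands in 1 palindromic run. The Mrpl37 start held the MYC letters once and the SP1 letters 2 times. The longer windows counted next also held 1 YY1 match each in Mrpl37 and Mrps11, not wholly within the printed bases. Over windows from 250 bases before to 50 bases after the RefSeq start, 68 of the 77 members could be matched. The window nearest to the start in the deposited annotation was taken, without a limit on distance. Some windows, among them those of Mrpl20 and Mrps21, do not contain the deposited start. The ETS letters stood in 24 of the 68 windows (35.3%), against 18.3% of 10170 windows of tested genes. The YY1 letters, which can also be read as a start codon followed by an alanine codon, stood in 13 (19.1%) against 8.28%. The NRF1 letters stood in 8 (11.8%) against 7.11%, in 7 of 44 windows of the large subunit and 1 of 23 of the small. At least 1 of these 3 motifs was present in 35 windows (51.5%), against 29.6% of tested genes. The SP1 letters were present in 34 (50%) against 63.5%, and the MYC letters in 5 (7.35%) against 10.2%. For SP1 the subunits lay on either side of the tested genes. It stood in 17 of 44 windows of the large subunit (38.6%) and 16 of 23 of the small (69.6%). In 2 members matches of different motifs overlapped. These shares describe letters in a window and are not evidence of binding.

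Neighbouring genes start back to back at many members. A gene on the opposite strand began within 1000 bases of the start of 27 of the 77 members (35.1%), against 1916 of 13398 tested genes with a single locus (14.3%). Mrpl46, on chromosome 7 from 78775341 to 78783089 on the minus strand, begins 42 bases from Mrps11 (78783131 to 78792988, plus strand), so that 1 region serves a large-subunit and a small-subunit gene. Other such neighbours, chosen after their distances were seen, were Mrpl47 with Ndufb5, a complex I subunit (308 bases), Mrpl43 with Peo1, the mitochondrial DNA helicase (116 bases), and Mrps12 with Sars2, the mitochondrial seryl-tRNA synthetase (187 bases). Mrpl46 and Mrps11 had fitted log2 fold changes of −0.15 ± 0.16 and 0.02 ± 0.16 (SE). Both 95% intervals included 0 and overlapped each other, so the values do not set these genes apart.

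Libraries held 27354768 to 48747137 counted read pairs, and the untreated ones were the shallower. Untreated pool 3 and RUX pool 4 stood apart from the other 4 pools over the table as a whole. On the first principal component of all tested genes (39.7% of the variance) they lay at 24.1 and 19.4, and the other pools at −16.5 to −3.04. Kit, the receptor used for sorting, was at 196 and 295 CPM (its counts scaled to a common library size) in these pools and at 409 to 471 CPM in the others. Of the lineage antigens listed, the T-cell gene Cd3e held 4 to 21 counts per library, the myeloid gene Itgam 10.9 to 17.1 CPM and Ptprc, which is expressed on blood cells in general, 96.1 to 187 CPM. Ly6g and Ly76 were not analysed here. Summed over the list, 4 eosinophil markers reached 225 CPM in untreated pool 3 and 217 CPM in RUX pool 4, against 37.8 to 85.6 CPM in the others, and each of the 4 was highest in these 2 pools. Ear6 and Il5ra held at most 51 and 31 counts in any library. Prg2 alone made up 214 and 207 CPM of the sums in these 2 pools. The 8 neutrophil markers summed to 13951 and 10360 CPM there and to 6213 to 9514 CPM elsewhere, a sum made up mostly of Mpo and Elane. Of these 8 only Elane had the 2 pools highest, and the mean deviation of the list from each gene's own mean (log2 scale) was 0.71 in untreated pool 2, 1.26 in untreated pool 3 and 0.59 in RUX pool 4. The mean deviation of 6 monocyte and dendritic markers was 0.50 in untreated pool 3 and 0.06 in RUX pool 4. For 6 erythroid markers it was −0.17 and −0.27, and for 5 lymphoid markers −0.09 and −0.04. For 4 megakaryocyte markers it was −0.06 and 0.23. The 6 stem cell markers were at −0.64 in untreated pool 3 and 0.11 in RUX pool 4. The 2 pools were thus not alike in every list. In such bulk samples fewer cells of a type and less RNA per cell cannot be told apart.

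Mitochondrial ribosomal protein mRNAs made up a similar part of the RNA with and without RUX. Their share of all counted pairs was 0.808%, 0.737% and 0.898% in untreated pools 1 to 3 and 0.842%, 0.783% and 0.791% in RUX pools 4 to 6. The group values were 0.814% ± 0.0804 and 0.806% ± 0.0319 (SD, n = 3 each). The untreated pools spanned the whole range of the treated ones, so the difference was far smaller than the spread between pools. Summed over members, levels were 8133 ± 978 CPM untreated and 8100 ± 764 CPM with RUX (SD, n = 3).

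Levels per length differed widely among members and hardly between groups. Mean CPM ran from 35.1 (Mrps36) to 295.5 (Mrpl18), an 8.42-fold range. Per kilobase of exon the range was 33.1-fold, from 13.4 to 444 CPM per kb. The median was 85.6 CPM per kb for the large subunit (quartiles 47.3 and 142) and 76.5 for the small subunit (47.4 and 112). The quartiles of the subunits overlap over most of their range. Across the 77 members, which are not independent replicates, Spearman's rho between untreated and RUX means per kilobase was 0.992. CPM itself was nearly unrelated to exon length (rho −0.032), whereas CPM per kilobase fell along it (rho −0.787), so the order per length is to a large extent an order of exon length.

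**Figure D1:**
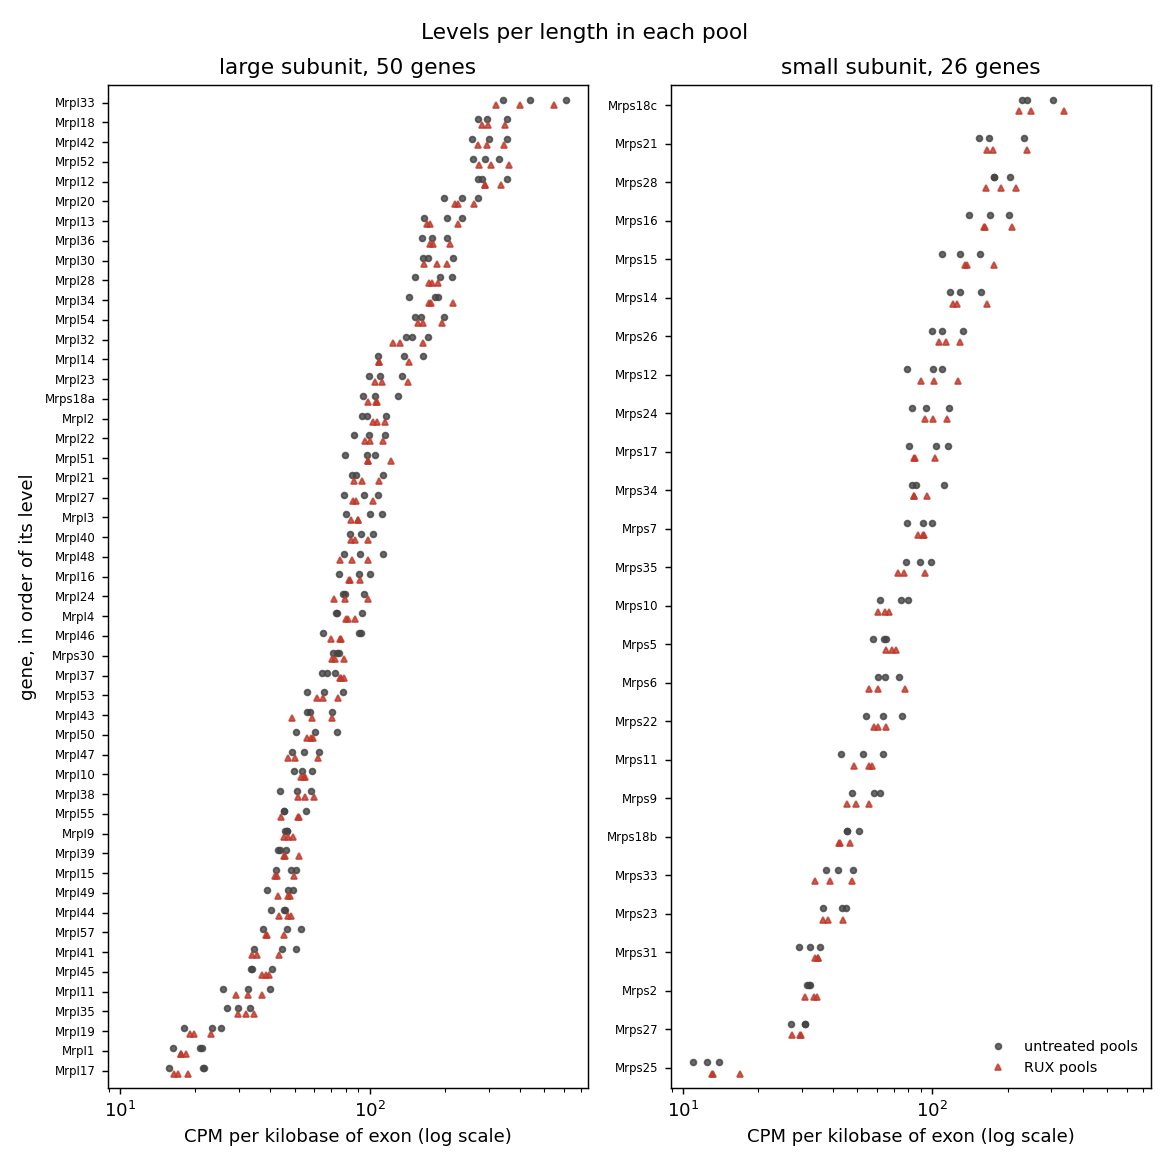
Level of each member per kilobase of exon (CPM per kb, log axis) in the 3 untreated (circles) and 3 RUX pools (triangles), large subunit on the left and small subunit on the right, in order of the mean level. The points of 1 gene lie close together, while genes range from 13.4 (Mrps25) to 444 CPM per kb (Mrpl33).

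In the large subunit the highest member per length was Mrpl33, a short protein with a bacterial counterpart, at 444 CPM per kb (321 to 612 over the 6 pools). Mrpl18, at the central protuberance of the large subunit, followed at 308 CPM per kb (272 to 354). Mrpl42, a protein specific to mitochondria, was at 305 CPM per kb (257 to 355). Mrpl52 and Mrpl12 were both at 304 CPM per kb, the latter for the protein of the flexible stalk that recruits translation factors. Mrpl33 was the highest in each of the 6 pools, and the order of the other 4 differed from pool to pool. The lowest were Mrpl17 at 18.5 (15.7 to 21.7), Mrpl1, of the mobile stalk on the other side, at 18.6 (16.2 to 21.3) and Mrpl19 at 21.4 CPM per kb (18.03 to 25.2). Their ranges overlap too.

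In the small subunit Mrps18c led at 263 CPM per kb (223 to 336), before Mrps21 at 189 (153 to 239) and Mrps28 at 187 (164 to 216). The ranges of Mrps21 and Mrps28 overlap, while the lowest pool of Mrps18c stood above the highest of Mrps28. At the low end stood Mrps25 at 13.4 (10.9 to 17.0), Mrps27 at 29.2 (27.2 to 31.0) and Mrps2 at 32.4 CPM per kb (30.9 to 34.4). Mrps25 lies apart from the next member, whereas Mrps27 and Mrps2 touch.

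Overlapping genes bear on some of these values, because by the counting tool's default a read pair that hits 2 genes is left out. Exons of 10 members overlap another gene, and in 7 this covers over 10% of the exon bases. In Mrps25 (chromosome 6, 92169523 to 92184023, minus strand) 3536 bases, or 58.3%, lie within Nr2c2. Over the bases outside the overlap its level was 32.2 instead of 13.4 CPM per kb. Mrpl41 shares 41.4% of its exon bases with Dph7 (68.6 instead of 40.2 CPM per kb) and Mrpl24 shares 37.4% with Rrnad1 (134 instead of 83.9). On that scale Mrps25 was still the lowest of the small subunit, but next to Mrps2 at 32.4 CPM per kb instead of apart from it.

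No member differed between RUX and untreated pools by the test. In edgeR's quasi-likelihood test 0 of the 77 had a Benjamini-Hochberg adjusted p under 0.05, beside 0 of 13411 tested genes (0%). At an unadjusted p under 0.05 the count was again 0 of 77, beside 254 of all tested genes (1.89%); the smallest among the members was 0.201. DESeq2 and limma-voom also gave 0 members by either threshold. Of all genes, 320 of 24421 rows in DESeq2 (1.31%) and 262 of 13411 in limma-voom (1.95%) had an unadjusted p under 0.05. RUX was fitted above untreated in 44 members and below in 33. The median log2 fold change was 0.0087, beside −0.0036 for all tested genes. The extremes were −0.20 (Mrpl41) and 0.21 (Mrps25), or folds of 0.870 and 1.16, and 64 members lay within 1.1-fold of no change.

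Each member's own 95% interval shows how large a change could have been missed in that gene. A change of more than 1.5-fold either way fell outside the 95% interval for 76 of 77 members, beside 7623 of all tested genes (56.8%). The exception was Mrpl33, with an interval of 0.653 to 1.27. Over all members the bounds ran from 0.653 to 1.46. Members had a median of 95.1 CPM, against 24.6 CPM over all tested genes. The count of members above and below depended on single pools. With untreated pool 3 left out 58 members were above and 19 below, and without RUX pool 4 the counts were 22 and 55. Without untreated pool 1 they were 28 and 49, without untreated pool 2 they were 27 and 50, and without both untreated pool 3 and RUX pool 4 they were 47 and 30. The split into 44 and 33 is therefore not a direction of the members as a group.

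**Figure D2:**
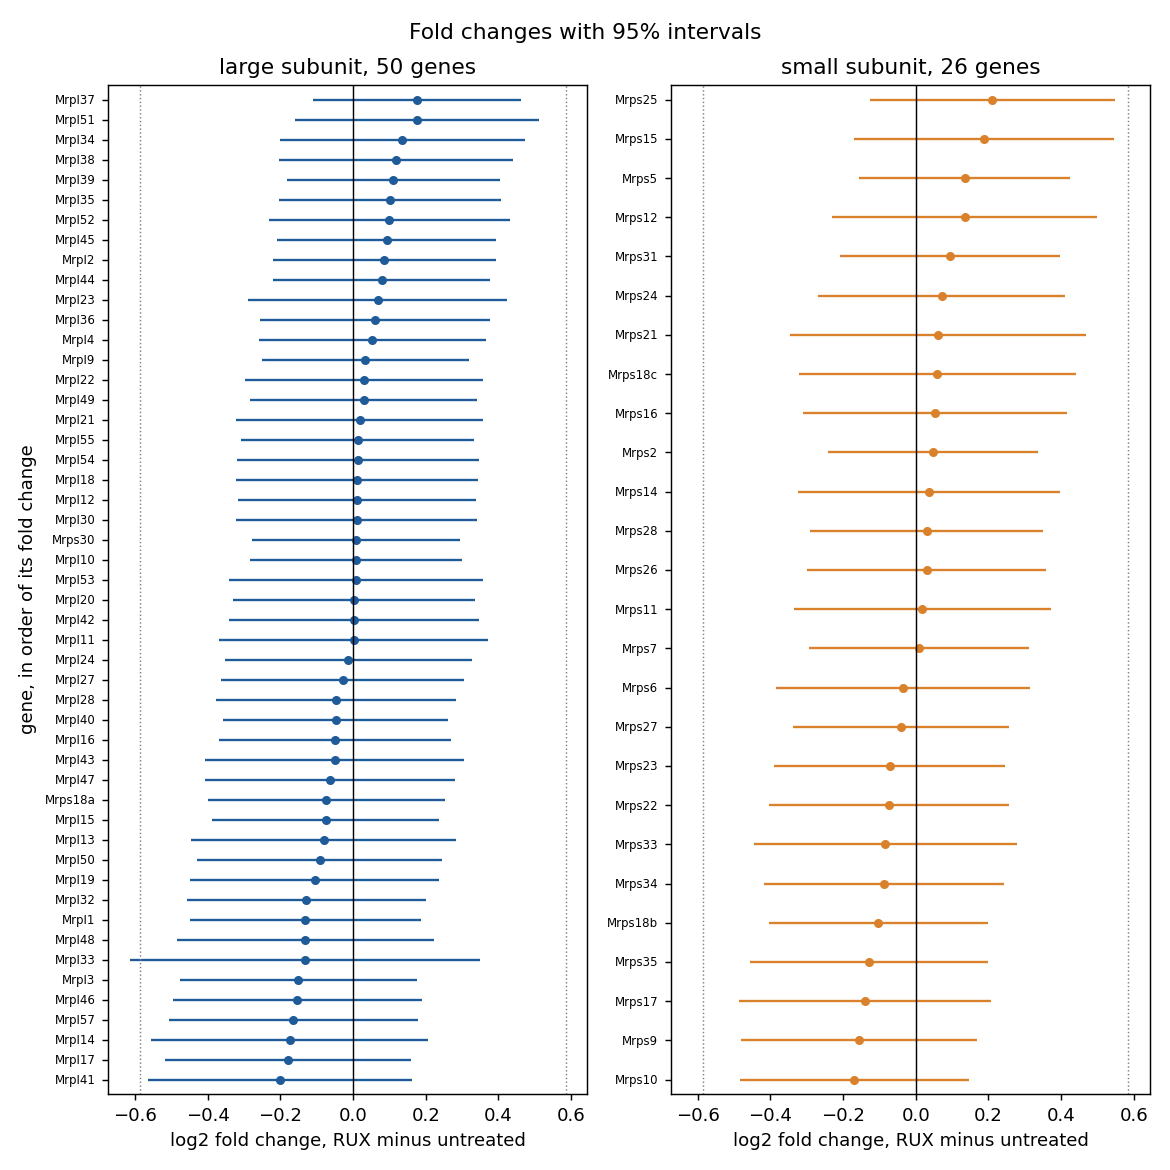
Fitted log2 fold change (RUX minus untreated, points) with its 95% interval (lines) for the 50 large-subunit and 26 small-subunit members, in order of the fold change; dotted lines mark 1.5-fold. Every interval includes 0, and only that of Mrpl33 crosses a dotted line.

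RUX pools lay entirely above untreated pools in 1 member, Mrpl37, beside 2.99% of all tested genes, and entirely below in 0 members, beside 3.25%. Mrpl37 encodes a protein of the large subunit that is specific to mitochondria. Its level was 96.2, 109 and 101 CPM in untreated pools 1 to 3 and 114, 115 and 118 CPM in RUX pools 4 to 6. The lowest treated pool stood just above the highest untreated one, and the means were 102 ± 6.44 and 115 ± 2.07 CPM (SD, n = 3). The log2 fold change was 0.18 ± 0.13 (SE), with a 95% interval of the fold from 0.927 to 1.38 (edgeR, unadjusted p = 0.207, adjusted p = 1). Mrps30, whose protein is a neighbour and relative of that of Mrpl37 in the large subunit, had a log2 fold change of 0.01. A share of 1 in 77 is under the background share.

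Among the other large-subunit members with the smallest p, Mrpl51 had a log2 fold change of 0.18, Mrpl34 one of 0.14 and Mrpl39 one of 0.11. On the other side stood Mrpl41 (−0.20), Mrpl17 (−0.18), Mrpl57 (−0.16) and Mrpl3 (−0.15), the last of which encodes a protein near the catalytic centre. Mrpl41 was at 107, 82.9 and 122 CPM in untreated pools and at 105, 85.9 and 81.7 CPM in RUX pools. Untreated pool 3 was the highest and RUX pool 6 the lowest, and the other values of the groups were interleaved (edgeR, unadjusted p = 0.253). The stalk and its base did not separate the groups either. Mrpl12 was at 257, 269 and 336 CPM untreated and 318, 275 and 275 CPM with RUX, with means of 287 ± 42.3 and 289 ± 24.5 CPM (SD, n = 3). The stalk-base genes Mrpl10 and Mrpl11 had log2 fold changes of 0.01 and 0.00. Mrpl45, whose protein holds the ribosome to the inner membrane at the exit of the peptide tunnel, had one of 0.09.

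In the small subunit the extremes were Mrps25 on the upper side and Mrps10 on the lower. Mrps25 was at 66.3, 75.9 and 84.3 CPM untreated and at 103, 79.9 and 79.4 CPM with RUX. The value of RUX pool 4 exceeded the rest, and the other treated pools lay among the untreated ones. Its log2 fold change was 0.21 ± 0.16 (SE), from 75.5 ± 9.01 to 87.4 ± 13.4 CPM (SD, n = 3; edgeR, unadjusted p = 0.201). Leaving out RUX pool 4 gave 0.08. Mrps10, a protein of the head of the subunit, was at 88.8, 72.5 and 94.2 CPM untreated and at 79.4, 76.3 and 71.4 CPM with RUX. Its log2 fold change was −0.17 ± 0.15 (SE), and the groups overlapped. Mrps15 (0.19), Mrps5 (0.13) and Mrps12 (0.13) were also on the upper side, the last being a protein of the decoding centre. Mrps9 (−0.16), Mrps17 (−0.14) and Mrps35 (−0.13) were on the lower side.

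The 3 paralogs of the bacterial protein S18 occupy different places in the mitochondrial ribosome. In the classes used here Mrps18c is counted as having a bacterial counterpart, and Mrps18a and Mrps18b as specific to mitochondria. Mrps18a, in the large subunit, had a log2 fold change of −0.07 and 106.8 CPM per kb. Mrps18b and Mrps18c, in the small subunit, had −0.10 and 0.06, with 45.5 and 263 CPM per kb. The 3 fold changes were small beside their errors, while the levels per length of the paralogs spread widely. Mrps36, the member outside the ribosome, was the least abundant. It was at 31.9, 30.7 and 37.8 CPM untreated and at 38.9, 33.5 and 37.9 CPM with RUX, with a log2 fold change of 0.14 ± 0.15 (SE).

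The large and small subunits gave similar values. The median log2 fold change was 0.0050 over the 50 large-subunit members (28 above and 22 below 0) and 0.024 over the 26 small-subunit members (15 and 11). To compare the subunits pool by pool, each gene's log2(CPM + 1) was set against its own mean over the 6 pools. The mean of this deviation over the large subunit minus that over the small was 0.024, −0.019 and 0.017 in untreated pools and −0.016, −0.0053 and −0.00066 in RUX pools. The groups were 0.0074 ± 0.0234 and −0.0074 ± 0.0081 (SD, n = 3), and the difference was smaller than the spread between untreated pools. The difference of the medians, −0.019, changed sign when single pools were left out.

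Proteins with bacterial counterparts and those specific to mitochondria gave similar medians in the large subunit, 0.0022 (16 above, 14 below) and 0.0081 (12 and 8). In the small subunit the classes differed more, with 0.042 for the 16 shared with bacteria (12 and 4) and −0.073 for the 10 specific to mitochondria (3 and 7). None of these members passed the test, and members are not replicates, so this is a description of 26 small fold changes. In median level per length the large subunit was at 86.0 ± 10.5 CPM per kb untreated and 83.7 ± 5.35 with RUX (SD, n = 3). The small subunit was at 79.5 ± 8.73 and 76.6 ± 6.94. Both differences lie within 1 SD.

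The members did vary together, but from pool to pool and not by treatment. Their mean deviation was −0.03, −0.14 and 0.18 in untreated pools 1 to 3 and 0.14, −0.07 and −0.07 in RUX pools 4 to 6. Untreated pool 3 and RUX pool 4, the pools that stood apart over all genes, were thus the highest of their groups. They were the 2 highest of the 6 pools in 49 of 77 members (63.6%), 35 of 50 in the large subunit and 14 of 26 in the small, beside 15.3% of all tested genes. The deviations of both subunits had the same sign in every pool.

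**Figure D3:**
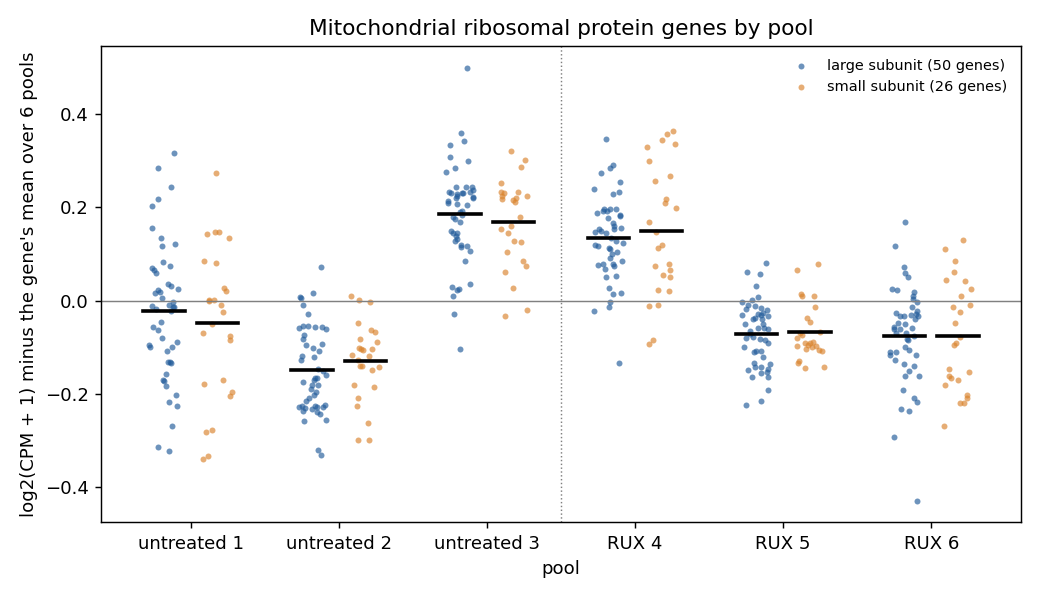
Log2(CPM + 1) minus the mean of the same gene across the 6 pools, for 50 large-subunit and 26 small-subunit members (points), with the mean of each subunit (black bars). Untreated pool 3 and RUX pool 4 lie above 0 for both subunits, with means from 0.13 to 0.18, and the other 4 pools lie below.

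The gap between the mean of these 2 pools and the mean of the other 4 was above 0 in 73 of 77 members, with a median of 0.26 on the log2(CPM + 1) scale. It was widest in Mrpl33 (0.63), Mrps21 (0.51), Mrps18c (0.44) and Mrpl14 (0.41). Mrpl33 was at 205, 160 and 285 CPM untreated and at 256, 187 and 149 CPM with RUX. Within each group its pools differed by more than 1.5-fold, while the group means of 217 ± 63.6 and 198 ± 54.2 CPM lay well within 1 SD (n = 3; log2 fold change −0.13 ± 0.22 SE). The 4 members without such a gap were Mrpl3 (−0.01), Mrpl37 (−0.03), Mrps27 (−0.01) and Mrps5 (−0.03).

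Some members hardly moved in any pool. Mrpl9 was at 74.3, 74.4 and 73.4 CPM untreated and at 79.1, 72.9 and 75.4 CPM with RUX, a coefficient of variation of 2.99% over the 6 pools. Mrps30 (4.15%) and Mrps2 (4.17%) followed. The most variable were Mrpl33 (26.0%), Mrps21 (19.7%) and Mrpl14 (18.2%). The median over members was 11.97%, against 13.5% over all tested genes with a mean of at least 5 CPM.

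The gap between pools went with exon length. Members are short, with a median summed exon length of 1053 bases (407 to 6712) against 2817 bases over all tested genes. Spearman's rho between the gap and exon length was −0.546 across members and −0.491 across all tested genes, a description across genes that share the same 6 libraries. Among the 1102 tested genes of up to 1000 bases the median gap was 0.30 and 56.6% had untreated pool 3 and RUX pool 4 as the 2 highest. The 31 members of that length had the same median, 0.30, and 29 had these pools highest. From 1000 to 2000 bases the medians were 0.13 over all 3040 genes and 0.17 over 34 members. From 2000 to 4000 bases they were −0.05 over 5355 genes and 0.20 over 7 members, and above 4000 bases −0.16 over 3914 genes and 0.20 over 5 members. The median gap of members thus equalled that of all tested genes up to 1000 bases and lay above it in each longer class. Untreated pool 3 and RUX pool 4 were the 2 highest in 15 of the 34 members of 1000 to 2000 bases, beside 27.3% of all genes. From 2000 to 4000 bases this held for 3 of 7 beside 8.12%, and above 4000 bases for 2 of 5 beside 4.32%. In every length class, the shortest included, this order was more frequent among members than among all tested genes. The classes above 2000 bases rest on 7 and 5 members. Genes were not matched on level, and the median was 95.1 CPM for members against 24.6 CPM for all tested genes. Whether level has a part in the higher frequency was not tested.

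**Figure D4:**
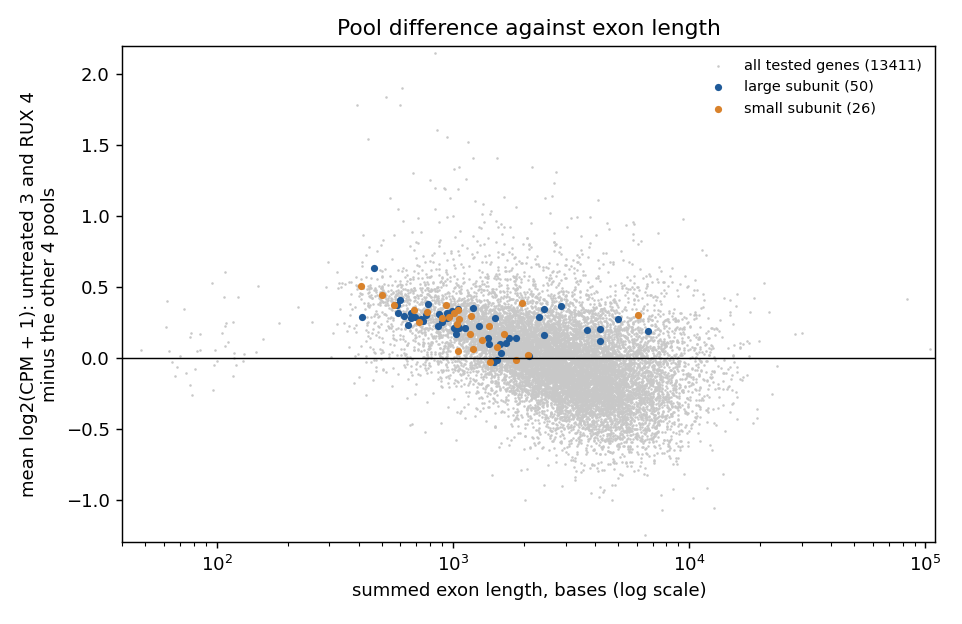
Gap between pools (mean log2(CPM + 1) of untreated pool 3 and RUX pool 4 minus that of the other 4 pools) against summed exon length (bases, log axis) for all 13411 tested genes (grey) and the members of either subunit. Short genes lie mostly above 0 and long genes mostly below, and the members lie on the short, upper side.

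When a smooth trend of each pool along exon length was removed, the members' mean deviations shrank to 0.0098, −0.072 and 0.066 in untreated pools and 0.012, −0.037 and 0.026 in RUX pools. The gap was then above 0 in 45 of 77 members, with a median of 0.035. The counts of members above and below under RUX remained near even, at 43 and 34, and 0 members had an unadjusted p under 0.05 in edgeR. The eosinophil markers were also highest in these 2 pools and Kit was lowest there, while the neutrophil markers other than Elane did not have both pools highest. The part of cell composition, of RNA quality or of library preparation in the gap was not tested.

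Genes for the other components of mitochondrial translation were read from lists of the pathway. The 6 ribosomal proteins with other names followed the members across pools only in part. Untreated pool 3 and RUX pool 4 were the 2 highest in 3 of them, while the gap was 0.03 for Dap3 and −0.28 for Ptcd3. The mean deviations of the 6 were 0.05, −0.15 and 0.20 in untreated and 0.07, −0.11 and −0.06 in RUX pools. Their median log2 fold change was −0.03 (2 above, 4 below), and 0 had an unadjusted p under 0.05. Dap3, a small-subunit protein that binds GTP, had a log2 fold change of 0.03. Ptcd3, which sits where the messenger RNA enters, had −0.31 ± 0.17 (SE; edgeR, unadjusted p = 0.101, adjusted p = 1). The others were Chchd1 (−0.20), Aurkaip1 (0.07) and Gadd45gip1 (−0.07). Ict1, a peptide release factor built into the large subunit, was at 72.4 ± 14.8 CPM untreated and 72.4 ± 12.4 CPM with RUX (SD, n = 3).

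The list of translation factors held 17 genes, among them related proteins that are not factors themselves (Oxa1l, Lrpprc, Slirp, Letm1 and Pdf). Of the 17 genes 12 were fitted above and 5 below 0, with a median of 0.02, and 0 had an unadjusted p under 0.05. Tufm, the elongation factor that delivers transfer RNAs, was at 134 ± 18.1 CPM untreated and 155 ± 7.70 CPM with RUX (SD, n = 3; log2 fold change 0.20). The translocase gene Gfm1 had 0.14, the initiation factor gene Mtif2 had −0.19 and Lrpprc, which stabilizes mitochondrial messenger RNAs, had 0.08. The treated pools lay above all untreated ones for the release factor gene Mtrf1l (0.24) and for Oxa1l (0.19), whose product inserts new proteins into the inner membrane. These were 2 of 17 genes, beside 2.99% of all tested genes, and for Mtrf1l the lowest treated pool (16.7 CPM) barely exceeded the highest untreated one (16.6 CPM).

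The smallest p of the pathway was in ribosome assembly. Gtpbp10, a GTPase needed to mature the large subunit, was at 40.8, 30.6 and 32.2 CPM untreated and at 22.2, 24.5 and 23.9 CPM with RUX. All treated pools lay below all untreated ones, and the means were 34.6 ± 5.49 and 23.5 ± 1.19 CPM (SD, n = 3). Its log2 fold change was −0.55 ± 0.16 (SE; edgeR, unadjusted p = 0.00422), which did not pass the adjustment over all tested genes (adjusted p = 1). It was the 1 gene with an unadjusted p under 0.05 among 27 of assembly and ribosomal RNA modification, beside 1.89% of all tested genes. Over the list 13 were above and 14 below 0, with a median of −0.03. Treated pools lay entirely below untreated ones in 2 of the 27 genes, Gtpbp10 and Trub2, beside 3.25% of all tested genes. They lay entirely above in 2, Ddx28 and Rnmtl1, beside 2.99%. Fastkd2, an RNA-binding protein of the assembly granules, had −0.36, the helicase gene Ddx28 had 0.25 and the pseudouridine synthase gene Trub2 had −0.24.

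The 11 genes of mitochondrial DNA transcription and upkeep split into 6 above and 5 below 0, with a median of 0.01. Tefm, the transcription elongation factor, had −0.34 (edgeR, unadjusted p = 0.0876). Tfam, which packs mitochondrial DNA and starts its transcription, had −0.08, and the RNA polymerase gene Polrmt had 0.07. The table holds 0 mitochondrially encoded genes, so the messenger RNAs that these ribosomes translate were not analysed here.

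The pool pattern of the members recurred in other sets of short genes. For complex I, 43 genes were taken by symbol (Nduf followed by a, b, c, s or v). This rule takes in assembly factors named Ndufaf beside the subunits, many of which join the products of mitochondrial ribosomes. The 43 genes had a median exon length of 800 bases, and 32 had untreated pool 3 and RUX pool 4 as the 2 highest. The 82 cytosolic ribosomal proteins had a median length of 717.5 bases, and 77 showed this order. Their mean deviation in RUX pool 4 was 0.37, against 0.14 for the mitochondrial ones, and their values are less certain where near-identical copies exist. The lists of longer genes did not show it to this extent. Of the 17 translation factors and related proteins (median length 2534 bases) 2 had these pools highest, and of 27 assembly genes (1797 bases) 5.

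**Figure D5:**
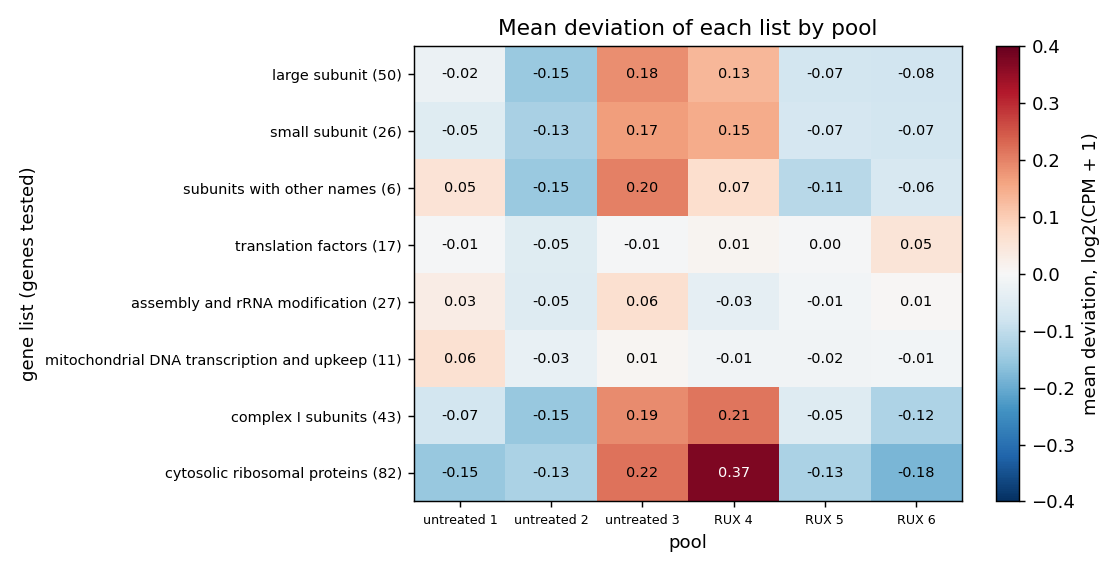
Mean over each list of log2(CPM + 1) minus the mean of the same gene across pools, by pool (columns) and gene list (rows, number of tested genes in brackets), with the value printed in each field. Both subunits, the complex I row (subunits and assembly factors) and the cytosolic ribosomal proteins are high in untreated pool 3 and RUX pool 4. The rows of translation factors (with related proteins), assembly genes and genes of mitochondrial DNA upkeep stay within 0.07 of 0.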

How the data were processed

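RNA of Lin-CD117+ cells was turned into libraries with the Takara SMART-Seq mRNA LP kit, per the labels' protocols. The submitters' processing notes name STAR and mm10; no STAR version is given in the sources used here. The authors deposited unnormalized counts of read pairs over exons of the UCSC mm10 genes, made with featureCounts 2.0.3, per the file headers. That command has no strand, multi-mapping or overlap option, so pairs that hit 2 genes or map to several places were left out by the tool's defaults, and sense and antisense reads cannot be told apart. Summed exon length per gene was taken from the same deposited table.

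From the counts, edgeR 4.0.16 (R 4.3.3) kept 13411 genes (filterByExpr), scaled libraries by TMM and ran the two-sided quasi-likelihood test with treatment as the term. P-values were adjusted by Benjamini-Hochberg over all tested genes (threshold 0.05). CPM is relative to the TMM-scaled library of the tested genes. SEs and 95% intervals were derived from each fold change with its F statistic. Fold changes are RUX minus untreated. The fit was tested on simulated data with changes larger than any fitted for a member. That test does not bear on changes as small as those of the members. Library totals were 27354768 to 48747137 pairs, and each member had well over 3 counts in every pool.

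The members, the pathway lists and the markers were chosen with earlier results of these data known. Members named are the 4 of smallest unadjusted p on either side of 0 and the 3 highest and 3 lowest levels per length within each subunit, those without overlap between groups, the 3 steadiest and 3 most variable, and genes of set roles (Mrps30, Mrps18a to Mrps18c, Mrps36, Mrpl10 to Mrpl12, Mrpl45, Mrps12). Alternatives were DESeq2 1.42.0, limma-voom 3.58.1, other scalings and filters, robust fitting, subunits by symbol and each pool left out. A fit without untreated pool 3 and RUX pool 4 and the removal of a lowess trend along exon length (span 0.3) were added after seeing the data. Gene positions are 1-based in mm10 from the deposited annotation. Promoter sequences are RefSeq's (GRCm38.p6), matched by symbol.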

Additional observations from a re-analysis of the deposited data

How the results depend on the processing

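No member was called and none had an unadjusted p under 0.05 in any of the 15 alternatives run, the 6 left-out pools, DESeq2 and limma-voom included. Without the low-count filter 14 genes of all were called, and 0 of them were members; in the other fits 0 genes were called. The median log2 fold change of the members ran from −0.074 to 0.11 with 1 pool left out. The median of the large subunit ran from −0.074 to 0.10 and that of the small from −0.074 to 0.097. The difference of their medians, large minus small, ran from −0.035 to 0.0071 with 1 pool left out, and was 0.021 without untreated pool 3 and RUX pool 4. Of 36 named members 22 kept the sign of the fold change in all of the 15 settings and 14 did not. No paired analysis was possible because pools are numbered 1 to 3 in one group and 4 to 6 in the other. With 3 pools per group the intervals limit the members' changes to under 1.5-fold, except for Mrpl33, and do not exclude smaller ones.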
